A study of Mus musculus with 4 samples.

Results

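The 10 genes described here encode cytokine receptor chains (*Il7r*, *Il2rg*, *Il4ra*, *Il6ra*), Janus kinases (*Jak1*, *Jak3*), the transcription factors *Stat5a* and *Stat5b*, and the feedback inhibitors *Socs1* and *Socs3*. They were chosen by name, most of them for their part in IL-7 and common gamma chain signalling, with earlier results of these data known. All 10 were found among the 24421 genes listed. RNA came from CD69+CD4+CD8+ (CD69+DP) thymocytes, sorted by flow cytometry from the adult thymus of C57BL/6-background mice aged 6 weeks. Control mice carried Foxa1fl/flFoxa2fl/fl without CD4Cre, and Foxa1/2cKO mice carried the same floxed alleles with the CD4Cre transgene, which drives recombination in thymocytes from the stage at which *Cd4* is expressed. There were 2 samples of each genotype, each sorted from different mice, with 2 mice of each genotype in a sort. The Foxa1/2cKO samples are called cKO 1 and cKO 2.

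IL-7 binds the IL-7 receptor alpha chain paired with the common gamma chain. Jak1 is bound to the first chain and Jak3 to the second, and both phosphorylate Stat5, which then enters the nucleus. SOCS proteins bind the receptor or the kinase and end the signal. Most preselection DP thymocytes carry little IL-7 receptor and a high level of Socs1, and the receptor returns as cells complete positive selection. In the kinetic signalling model, common gamma chain cytokines support cells that take the CD8 lineage. The comparison of genotypes asked whether the genes of this pathway differed in level in cells that had received a TCR signal.

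None of the 10 genes had an adjusted p under 0.05 in Foxa1/2cKO against control (limma, Benjamini-Hochberg over 10776 genes tested), and 1, *Jak1*, had an unadjusted p under 0.05. Over all tested genes, 0.00928% passed the first threshold and 4.55% the second, 2.39% with a higher and 2.15% with a lower level in Foxa1/2cKO. With limma-voom on recovered reads the counts were also 0 and 1. The 2 genotypes did not overlap in 2 of the 10 genes, where 36.7% of all tested genes did not: *Jak1* was above both controls (18.9% of all tested genes) and *Il6ra* below both (17.8%). The median log2 fold change was 0.03 over the 10 genes and 0.005 over all tested genes. The 2 Foxa1/2cKO samples differed more than the 2 controls for most of the 10, with *Il7r*, *Il6ra* and *Jak3* lowest and *Il4ra*, *Stat5a* and *Stat5b* highest in cKO 2.

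Levels are FPKM, the fragments on a gene scaled to its length and to a total for each sample. The steps of these values gave the whole reads behind them, 10395399 to 14480764 per sample on listed genes. In cKO 2 the recovered total was 11093927, below its 11260735 reads on listed genes. In the other samples the total was above the reads. The total is thus not a plain library size, and scaling to all recovered reads was run as an alternative. *Foxa1* and *Foxa2* were listed at 0 in all 4 samples, so they give no check of genotype. cKO 2 stood apart from the other 3 samples, at 28.5 on a first principal component that placed them between -11.0 and -7.4. It lay outside the range of the other 3 samples for 73.8% of all tested genes. With 2 against 2, an exact permutation test stops at a two-sided p of 0.333, so the fit across all genes was used, and each fold change is on the log2(FPKM + 1) scale, which understates the change of low genes. The 95% interval of the fitted difference held 0 for all of the 10 genes but *Jak1*.

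No gene of the 10 was called with all 4 samples, and the fits with 1 sample left out depended on cKO 2. Each such fit has 1 sample in a group, so its p-values rest on the spread of the other group alone. The lone sample is assumed to vary like that group, so the counts below are descriptions and not calls of genotype. With cKO 1 left out, so that cKO 2 was set alone against the controls, 7 of the 10 genes had an adjusted p under 0.05 and 8 an unadjusted p under 0.05 (limma), beside 23.7% and 39.2% of all tested genes. The 7 were *Il7r*, *Il6ra* and *Jak3* (lower) and *Il4ra*, *Jak1*, *Stat5a* and *Stat5b* (higher). With cKO 2 left out, 0 and 3 of the 10 passed, beside 0.176% and 17.5% of all tested genes, the 3 being *Il2rg* (lower), *Jak1* and *Socs1* (higher). With control 1 or control 2 left out, none had an unadjusted p under 0.05, beside 1.08% and 0.677% of all tested genes.

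**Figure D1:**
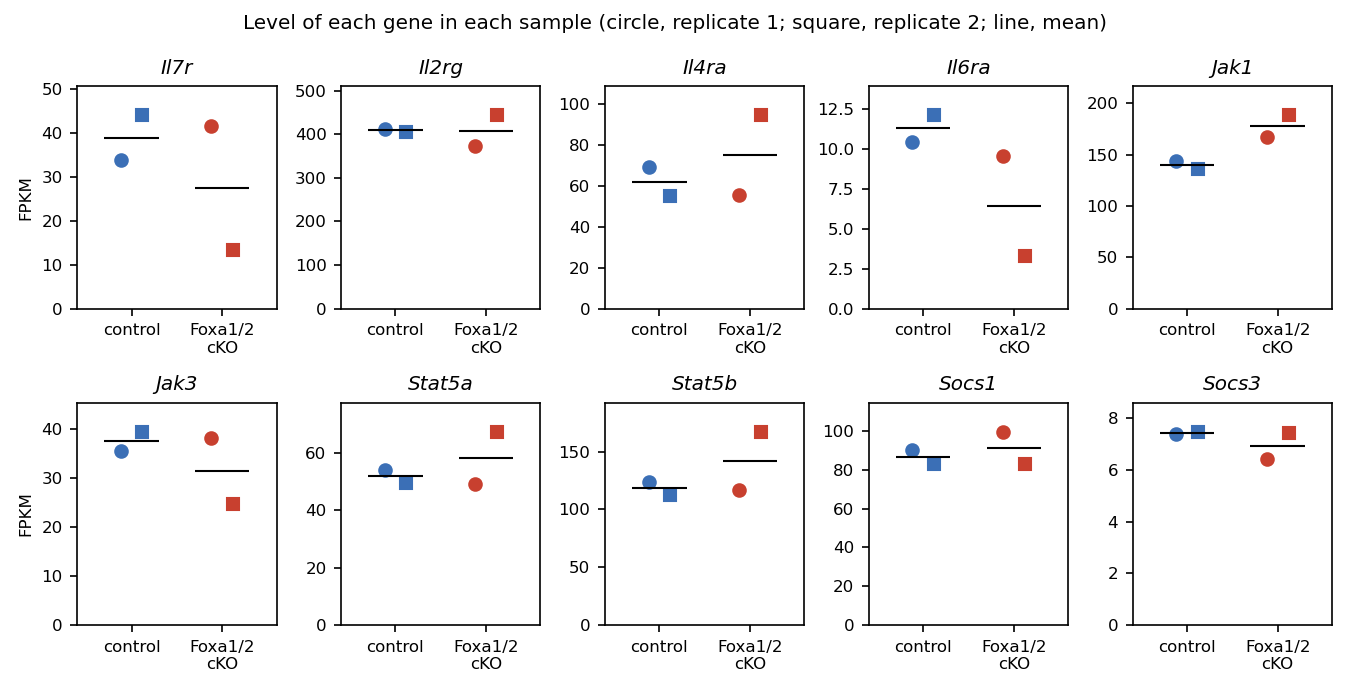
FPKM (y axis, from 0) of each of the 10 genes in the control samples (blue) and the Foxa1/2cKO samples (red), with replicate 1 as a circle, replicate 2 as a square and the group mean as a line. The 2 Foxa1/2cKO values for *Il7r* are 41.5 and 13.4, whereas both values for *Jak1* lie above both controls.

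*Il7r* encodes the IL-7 receptor alpha chain, which sets whether a thymocyte can bind IL-7. It lies on the minus strand of chromosome 15 (chr15:9506159-9529941, mm10). Its FPKM was 33.7 and 44.1 in the controls, 41.5 in cKO 1 and 13.4 in cKO 2. Thus cKO 1 lay between the controls, and cKO 2 lay below all other samples, 3.10-fold under cKO 1. These values came from 477 reads in cKO 2 and 1438 to 1922 reads in the others, so counting error was at most 4.58% of a value. Control averaged 38.9 ± 7.33 and Foxa1/2cKO 27.4 ± 19.9 (SD, n = 2 each). Its log2 fold change was -0.68 (standard error 0.53, 95% interval -2.07 to 0.71, adjusted p = 0.863 from limma). Without cKO 2 it was 0.10, so the direction of the mean rested on that sample. Of all tested genes, 0.65% had a gap between the 2 Foxa1/2cKO samples at least as large as that of *Il7r* on this scale.

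The 29 bases around a match to TTCNNNGAA, the palindrome bound by activated STAT dimers, are shown for *Il7r* (mm10, minus strand, chr15:9530000-9530028), with the match in capitals. Its first base lies at -142 from the start used in the RefSeq promoter table, which is 65 bases inside the 5′ end of the gene span given above.

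*Il7r*: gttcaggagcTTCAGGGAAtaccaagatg

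The same letters, searched on both strands of windows from 250 bases before to 50 after the start, were found in 2 of the 10 genes, *Il7r* and *Socs3*, and in 9.55% of the 27025 genes with a window. The palindrome reads alike on both strands, so a match on either strand is also a match at the same bases of the other. TGTTTAC, a core shared by forkhead factors including Foxa1 and Foxa2, was found in 0 of the 10 genes and in 4.05% of all genes with a window, so these letters are not in these windows.

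*Il2rg* encodes the common gamma chain, the shared partner of the receptors for IL-2, IL-4, IL-7, IL-9, IL-15 and IL-21 (chromosome X, chrX:101264385-101268255, minus strand). It had the highest level of the 10 genes in every sample. Values were 412 and 405 in the controls, 373 in cKO 1 and 444 in cKO 2. The controls lay between the 2 Foxa1/2cKO samples. Its log2 fold change was -0.007 (standard error 0.12, 95% interval -0.32 to 0.30), and its sign turned to 0.03 with a correction for gene length. Its longest annotated transcript shares 42.01% of its 50-base stretches with transcripts of *Gm20489*, an annotated locus on the same exons that is not in the deposited table. Relative to *Il2rg*, *Il7r* was low in cKO 2: the ratio of *Il2rg* to *Il7r* FPKM was 12.2 and 9.19 in the controls, 8.98 in cKO 1 and 33.1 in cKO 2. A ratio within a sample does not depend on the scaling between samples.

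*Il4ra* encodes the IL-4 receptor alpha chain, which signals with the common gamma chain through Jak1, Jak3 and Stat6 (chromosome 7, chr7:125552271-125579474, plus strand). Its FPKM was 69.1 and 55.0 in the controls, 55.6 in cKO 1 and 94.8 in cKO 2. Here cKO 2 was the highest sample and cKO 1 lay between the controls, as it did for *Il7r*. The fitted change was 0.23 on the log2 scale (standard error 0.28, 95% interval -0.50 to 0.97) and -0.15 without cKO 2. The ratio of *Il4ra* to *Il7r* FPKM was 2.05 and 1.25 in the controls, 1.34 in cKO 1 and 7.08 in cKO 2.

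*Il6ra* encodes the IL-6 receptor alpha chain, which uses the partner chain gp130 (encoded by *Il6st*) and not the common gamma chain (chromosome 3, chr3:89869324-89913196, minus strand). Its FPKM was 10.4 and 12.1 in the controls, 9.53 in cKO 1 and 3.29 in cKO 2. Both Foxa1/2cKO samples were below both controls, cKO 1 by little and cKO 2 by far. Its log2 fold change of -0.87 was the lowest of the 10 genes but had a standard error of 0.44 (95% interval -2.02 to 0.28, unadjusted p = 0.109 and adjusted p = 0.863 from limma). Without cKO 2 it was -0.22. Reads were few, 122 in cKO 2 and 344 to 550 in the others, which gives a counting error of up to 9.05% of a value. *Il6st*, named after its values were seen, was highest in cKO 2, with an FPKM of 59.9 and 57.0 in the controls, 58.3 in cKO 1 and 91.7 in cKO 2.

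*Jak1* encodes the kinase that serves the ligand-binding chains of the common gamma chain family, gp130 and the interferon receptors (chromosome 4, chr4:101151974-101265282, minus strand). Its FPKM was 144 and 136 in the controls, 167 in cKO 1 and 189 in cKO 2. Both Foxa1/2cKO samples were above both controls. The means were 140.2 ± 5.68 and 178 ± 15.2 (SD, n = 2 each), 27.0% higher in Foxa1/2cKO, a difference larger than the SD of either group. The log2 fold change was 0.34 (standard error 0.10, 95% interval 0.08 to 0.60, unadjusted p = 0.0218 and adjusted p = 0.863 from limma), so *Jak1* did not pass the threshold over all genes. It was 0.25 without cKO 2 and 0.43 without cKO 1. *Jak1* was among the genes with most reads, 9568 to 11436 per sample.

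*Jak3* encodes the kinase bound to the common gamma chain, and serves no other receptor family (chromosome 8, chr8:71676383-71690577, plus strand). Its FPKM was 35.5 and 39.5 in the controls, 38.3 in cKO 1 and 24.8 in cKO 2. cKO 1 lay between the controls and cKO 2 below them. The fitted difference was -0.27 on the log2 scale (standard error 0.22, 95% interval -0.85 to 0.30) and 0.03 without cKO 2. Of the exonic bases annotated for *Jak3*, 7.55% overlap exons of *Insl3*, which was listed at 0.307 to 0.789 FPKM. The ratio of *Jak1* to *Jak3* FPKM was 4.06 and 3.45 in the controls, 4.37 in cKO 1 and 7.61 in cKO 2. It was thus above both controls by little in cKO 1 and by more in cKO 2. How often a ratio of other genes does so was not tested.

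*Stat5a* and *Stat5b* encode close relatives that bind the same DNA element and carry the IL-7 signal to the genome. They lie head to head on chromosome 11, *Stat5b* on the minus strand (chr11:100780731-100859004) and *Stat5a* on the plus strand (chr11:100859351-100885169), with 346 bases between their annotated 5′ ends. The FPKM of *Stat5a* was 53.97 and 49.7 in the controls, 49.1 in cKO 1 and 67.4 in cKO 2. For *Stat5b* the FPKM was 124 and 113 in the controls, 117 in cKO 1 and 167 in cKO 2. In both genes cKO 2 was the highest sample and the other 3 lay close together. The log2 fold change was 0.15 for *Stat5a* (standard error 0.17, 95% interval -0.30 to 0.60) and 0.24 for *Stat5b* (standard error 0.19, 95% interval -0.26 to 0.74). Without cKO 2 these became -0.075 and -0.019. *Stat5b* was the more abundant per length in each sample, with a ratio of *Stat5b* to *Stat5a* FPKM of 2.29, 2.27, 2.37 and 2.48. Cut into 50-base stretches, 10.8% of the longest *Stat5a* transcript and 11.8% of the longest *Stat5b* transcript occur in the other gene. A read wholly within shared bases fits both genes, and the share of reads affected was not tested. The values are per gene and do not resolve exons.

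**Figure D2:**
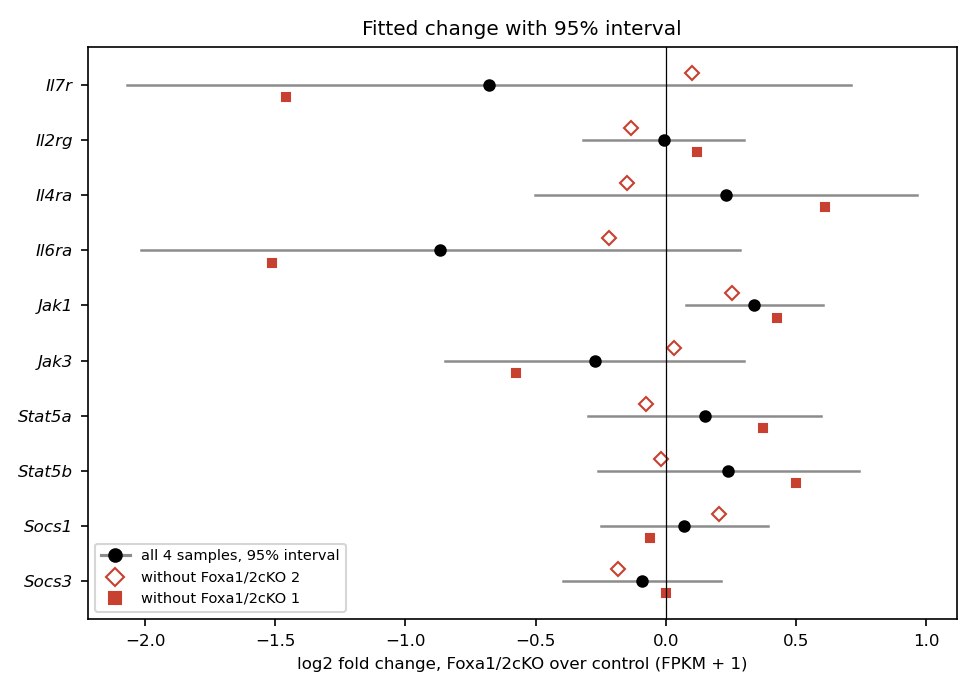
Fitted log2 fold change of Foxa1/2cKO over control on the log2(FPKM + 1) scale (x axis) for each of the 10 genes (y axis), from all 4 samples (black, with the 95% interval as a grey line), without cKO 2 (open diamond) and without cKO 1 (filled square). For *Il7r* the values are -0.68, 0.10 and -1.46, and for *Jak1*, whose interval does not reach 0, they are 0.34, 0.25 and 0.43.

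*Socs1* encodes the inhibitor that binds Jak kinases and damps IL-7 and interferon signals in DP thymocytes (chromosome 16, chr16:10783808-10785536, minus strand). Its FPKM was 90.3 and 82.8 in the controls, 99.7 in cKO 1 and 82.9 in cKO 2. Here cKO 2 lay within the range of the controls and cKO 1 above it. On the log2 scale the difference was 0.07 (standard error 0.12, 95% interval -0.25 to 0.39), 0.20 without cKO 2 and -0.06 without cKO 1.

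*Socs3* encodes the inhibitor of receptors that signal through gp130, and is itself induced by Stat3 (chromosome 11, chr11:117966079-117970336, minus strand). Its FPKM was 7.38 and 7.49 in the controls, 6.43 in cKO 1 and 7.45 in cKO 2, from 189 to 301 reads per sample. The level was thus low in all samples, and cKO 2 lay between the controls. On the log2 scale it differed by -0.09 (standard error 0.12, 95% interval -0.40 to 0.21), -0.18 without cKO 2 and 0.002 without cKO 1. The FPKM ratio of *Socs1* to *Socs3* was 12.2, 11.1, 15.5 and 11.1 in control 1, control 2, cKO 1 and cKO 2.

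The match to TTCNNNGAA in *Socs3* (chr11:117969502-117969530, minus strand) is counted from a start 970 bases inside the 5′ end of the gene span above. It lies within that span. It is set beside the match in *Il7r* (chr15:9530000-9530028, minus strand) and the pair in *Cish* (chr9:107296649-107296677 and chr9:107296660-107296688, plus strand), a SOCS family gene induced by Stat5. These are matches of letters, and binding was not tested. Each is printed with 10 bases on either side, and the match is in capitals.
*Il7r* at -142: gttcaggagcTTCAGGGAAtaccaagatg
*Socs3* at -154: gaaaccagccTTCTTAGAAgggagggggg
*Cish* at 1: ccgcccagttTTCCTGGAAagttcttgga
*Cish* at 12: tcctggaaagTTCTTGGAAatctgtcaaa

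*Cish*, named after its values were seen, had an FPKM of 6.43 and 7.26 in the controls, 6.60 in cKO 1 and 1.33 in cKO 2. Its cKO 2 value was 4.95-fold below that of cKO 1, from 32 reads against 154. *Cish* and *Il7r* were lowest in cKO 2, as 33.3% of all tested genes were, whereas *Socs3* was not. The part of Stat5 in these levels was not tested. For *Cish* the log2 fold change was -0.90 (standard error 0.57, 95% interval -2.39 to 0.60), and it was -0.04 without cKO 2.

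Ordered by mean FPKM in the controls, the 10 genes were *Il2rg* (409), *Jak1* (140.2), *Stat5b* (118), *Socs1* (86.5), *Il4ra* (62.1), *Stat5a* (51.8), *Il7r* (38.9), *Jak3* (37.5), *Il6ra* (11.3) and *Socs3* (7.44). Neighbours in this order did not overlap between the 2 controls, except *Il7r* and *Jak3*, whose control ranges overlapped. cKO 1 had the order of the control means. In cKO 2, *Il4ra* stood above *Socs1*, *Jak3* above *Il7r* and *Socs3* above *Il6ra*. In every sample the shared chain *Il2rg* was thus several-fold above the ligand-binding chains *Il4ra*, *Il7r* and *Il6ra*, and cKO 2 differed in the order of those chains.

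The median absolute log2 difference between the 2 Foxa1/2cKO samples was 0.485 over the 10 genes and 0.200 over all tested genes. Between the 2 controls it was 0.125 and 0.076. cKO 2 lay outside the range of the other 3 samples for 8 of the 10, above it for *Il2rg*, *Il4ra*, *Jak1*, *Stat5a* and *Stat5b* and below it for *Il7r*, *Il6ra* and *Jak3*. Of all tested genes, 40.5% were above and 33.3% below in this way.

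Of 59 further genes of cytokine and JAK-STAT signalling, all 59 were listed and 49 passed the filter on low values (FPKM 1 or more in 2 or more samples). With limma 0 of the 49 passed an adjusted p of 0.05, while 4 had an unadjusted p under 0.05, all higher in Foxa1/2cKO, beside 2.39% of all tested genes in that direction. Their median log2 fold change was 0.03. In 21 of the 49, or 42.9%, both Foxa1/2cKO samples lay on one side of both controls, beside 36.7% of all tested genes.

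The 4 were *Il10ra*, *Ifngr1*, *Jak2* and *Stat4*. *Il10ra*, the ligand-binding chain for IL-10, had an FPKM of 6.71 and 6.18 in the controls, 11.8 in cKO 1 and 9.19 in cKO 2, giving a log2 fold change of 0.62 (standard error 0.15). *Ifngr1*, the ligand-binding chain for interferon gamma, was at 142 and 139 in the controls, 170.1 in cKO 1 and 170.2 in cKO 2, giving a log2 fold change of 0.27 (standard error 0.08). Both genes had both Foxa1/2cKO samples above both controls, as *Jak1* and 18.9% of all tested genes did. Their partner chains did not: *Ifngr2* was at 30.4 and 32.5 FPKM in the controls, 28.8 in cKO 1 and 28.2 in cKO 2. *Il10rb* was at 8.85 and 9.40 in the controls, 9.91 in cKO 1 and 8.58 in cKO 2.

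*Jak2*, the kinase of the second interferon gamma receptor chain, was at 37.2 and 36.6 FPKM in the controls, 43.2 in cKO 1 and 44.5 in cKO 2, giving a log2 fold change of 0.24 (standard error 0.08). *Stat4*, which carries IL-12 signals, was at 13.3 and 11.9 in the controls, 15.9 in cKO 1 and 17.5 in cKO 2, giving a log2 fold change of 0.38 (standard error 0.11). The adjusted p was 0.863 for each of the 4 (limma, Benjamini-Hochberg). Without cKO 2 the fold changes were 0.78 for *Il10ra*, 0.27 for *Ifngr1*, 0.22 for *Jak2* and 0.32 for *Stat4*. All 4 genes had both Foxa1/2cKO samples above both controls, so leaving out cKO 2 could not turn their direction.

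By class, 17 of 19 receptor genes were tested, 10 with a higher and 7 with a lower mean in Foxa1/2cKO, and *Ifngr1* was the most abundant of them. The 7 ligand genes (*Il2*, *Il4*, *Il6*, *Il7*, *Il15*, *Il21*, *Tslp*) were all below the filter, and *Il7* had at most 1 read in a sample. All 5 STAT genes had a higher mean in Foxa1/2cKO, with log2 fold changes of 0.02 to 0.38. The most abundant of these, *Stat6*, which serves the IL-4 receptor, was at 71.3 and 64.4 FPKM in the controls, 64.9 in cKO 1 and 88.8 in cKO 2, with the sample order of *Il4ra*.

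Of the 6 SOCS family genes, 5 were tested. *Socs4* was the most abundant of these, at 12.8 and 13.8 FPKM in the controls, 13.8 in cKO 1 and 16.4 in cKO 2, and *Socs1* was above it in each sample. The 8 other inhibitors had log2 fold changes of -0.15 to 0.13, and the most abundant, *Ptpn6*, the phosphatase SHP-1, was at 181 and 162 FPKM in the controls, 165 in cKO 1 and 214 in cKO 2.

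Of the 7 cytokine response genes, 6 had a lower mean in Foxa1/2cKO, with a median log2 fold change of -0.21. Of the 10776 tested genes, 5253 had a lower mean. The most abundant, *Ccnd3*, was at 414 and 437 FPKM in the controls, 379.6 in cKO 1 and 380.4 in cKO 2. cKO 2 was the lowest of the 4 samples in 5 of the 7, beside 33.3% of all tested genes. For *Pim1*, 1 of these 5, it was lowest by little, at 33.6 FPKM against 33.7 in cKO 1. *Ccnd2*, cyclin D2, had an FPKM of 58.5 and 61.5 in the controls, 67.4 in cKO 1 and 19.9 in cKO 2. *Bcl2*, the survival gene induced by IL-7, was at 26.8 and 30.4 in the controls, 27.2 in cKO 1 and 21.3 in cKO 2. *Runx3*, the CD8 lineage factor, was at 18.0 and 19.2 in the controls, 18.1 in cKO 1 and 11.5 in cKO 2. All 3 were lowest in cKO 2, as *Il7r* and *Jak3* were, and were named after their values were seen.

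Among the 5 regulators of *Il7r* transcription, *Foxo1*, an activator, was at 33.0 and 34.0 FPKM in the controls, 32.1 in cKO 1 and 21.2 in cKO 2. *Gfi1*, a repressor, was at 43.6 and 40.9 in the controls, 40.9 in cKO 1 and 60.98 in cKO 2. The most abundant of the 5, *Ets1*, an activator, was at 499.7 and 489 in the controls, 491 in cKO 1 and 605 in cKO 2. *Gabpa*, also an activator, was at 20.8 and 19.8 in the controls, 23.3 in cKO 1 and 21.6 in cKO 2. *Runx1* was at 27.3 and 27.9 in the controls, 24.0 in cKO 1 and 24.7 in cKO 2. Of the 5, cKO 2 was thus below the other 3 samples for *Foxo1* and above them for *Gfi1* and *Ets1*.

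**Figure D3:**
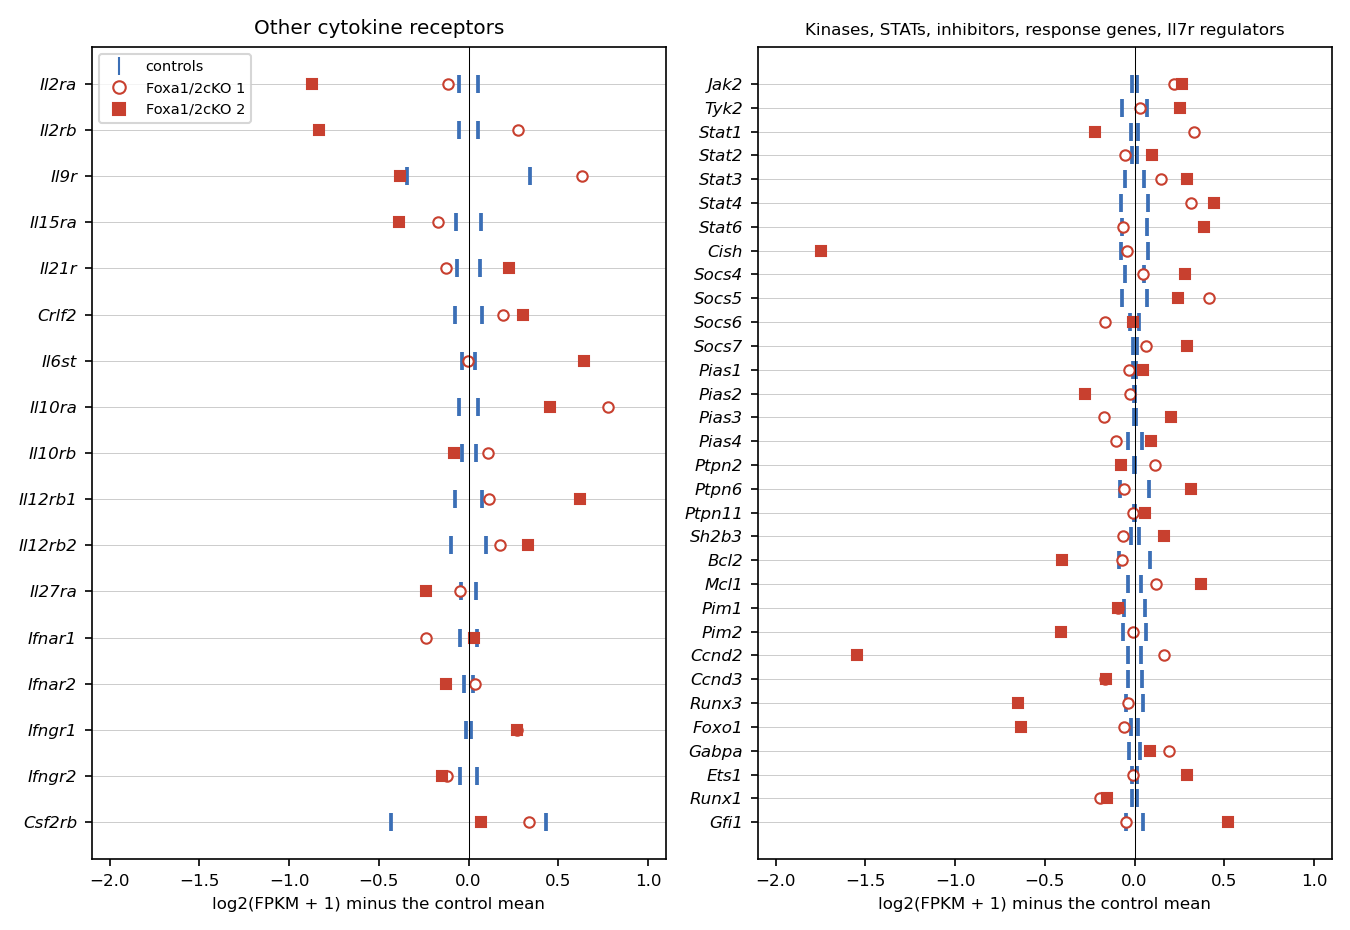
log2(FPKM + 1) of each sample minus the control mean (x axis) for the 49 tested genes of the wider pathway (y axis), with controls as blue ticks, cKO 1 as open circles and cKO 2 as filled squares. *Cish* and *Ccnd2* in cKO 2 lie farthest below the controls, whereas both Foxa1/2cKO samples lie above them for *Il10ra*, *Ifngr1*, *Jak2* and *Stat4*.

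The sorted cells had the markers of their label: *Cd3e*, *Cd4*, *Cd8a*, *Cd8b1*, *Cd69* and *Ptprc* were at 103 FPKM or more in every sample. They were higher in cKO 2 than in the other 3 samples for 4 of the 6, *Cd4*, *Cd8a*, *Cd8b1* and *Cd69*. *Ccr7*, *S1pr1*, *Klf2* and *Cd40lg*, which mark mature single-positive thymocytes, were also present, and these 4 were lowest in cKO 2. *Ccr7*, the chemokine receptor for entry to the medulla, was at 82.5 and 91.7 FPKM in the controls, 86.9 in cKO 1 and 39.1 in cKO 2. *Klf2*, a factor for thymic egress, was at 37.0 and 43.0 in the controls, 43.4 in cKO 1 and 17.0 in cKO 2. *S1pr1*, the egress receptor, was at 12.3 and 13.9 in the controls, 13.4 in cKO 1 and 6.40 in cKO 2, and *Cd40lg*, the CD40 ligand of CD4 lineage cells, was at 24.9 and 34.6 in the controls, 26.8 in cKO 1 and 9.01 in cKO 2.

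*Rag1*, *Rag2*, *Ccr9* and *Arpp21*, which mark preselection DP cells, summed to 764 and 763 FPKM in the controls, 767 in cKO 1 and 925 in cKO 2. Most of that difference was *Ccr9*, at 334 and 317 in the controls, 247 in cKO 1 and 490 in cKO 2, whereas *Rag1* was highest in cKO 1 and lay between the controls in cKO 2, and *Arpp21* was lowest in cKO 2, at 27.4 against 30.6 to 33.2 in the others. Low *Il7r*, *Jak3* and *Il6ra* therefore came in the sample with the lowest *Ccr7*, *S1pr1*, *Klf2* and *Cd40lg*. These are the 3 of the 10 genes that were lowest in cKO 2, while 5 were highest there. Of all tested genes, 33.3% were lowest in cKO 2. The part of cell stage in these levels was not tested, and in bulk RNA fewer cells of a stage cannot be told apart from less RNA per cell.

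B cell markers summed to 73.6 and 49.0 FPKM in the controls, 100.04 in cKO 1 and 52.6 in cKO 2, and myeloid markers to 34.2, 21.0, 33.0 and 16.9 in the same order. None of the 5 B cell or 5 myeloid markers was at 0 in every sample, and 3 of the 5 myeloid markers (*Lyz2*, *Csf1r*, *Cd68*) were lowest in cKO 2. Their part in the levels of the receptors was not tested.

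**Figure D4:**
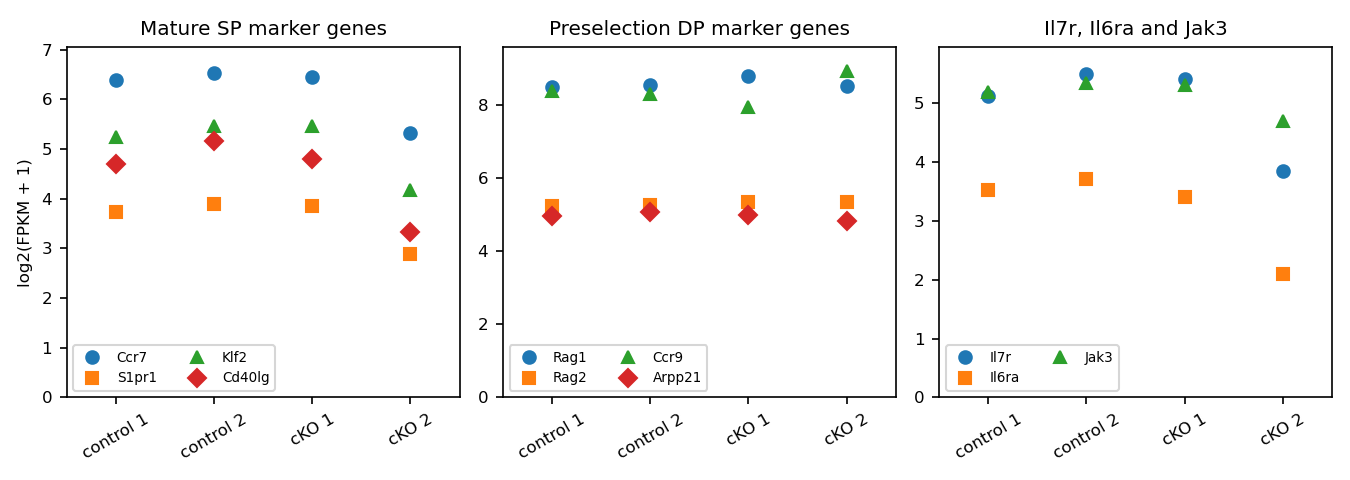
log2(FPKM + 1) (y axis, from 0) in each of the 4 samples (x axis, cKO for Foxa1/2cKO) of 4 mature single-positive genes (left), 4 preselection DP genes (middle) and *Il7r*, *Il6ra* and *Jak3* (right). The 4 genes of the left panel are lowest in cKO 2. The right panel shows those 3 of the 10 genes that were lowest in cKO 2, as 33.3% of all tested genes were, and leaves out the 5 that were highest there.

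The gene nearest to each of the 10 in its pattern over the 4 samples was found by the root mean square difference of centred log2(FPKM + 1) values among all tested genes. For *Il7r* it was *Gm13546* (0.0337), for *Il6ra* *Pkmyt1* (0.0314), for *Jak3* *Uchl5* (0.0117) and for *Jak1* *Tnik* (0.0122). For *Il2rg* it was *Slc4a1ap* (0.00367), for *Il4ra* *Rptoros* (0.0089), for *Stat5a* *Eif1b* (0.0105) and for *Stat5b* *Rbm12b1* (0.00641). For *Socs1* it was *Spin2c* (0.00781) and for *Socs3* *Aldoa* (0.00575). *Il7r* and *Il6ra* had the least close neighbours. These are descriptions over 4 samples, and none of the nearest genes was another of the 10.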

How the data were processed

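CD69+DP thymocyte RNA was sequenced in 4 samples. Alignment by the authors was to mm10 with RefSeq annotation, TopHat being named in the submitters' processing notes, and HTSeq gave the counts (union mode). Values were deposited by the authors as FPKM per gene and sample, and the step from counts to FPKM, with its scaling between samples, is not given in the sources used here. From their steps, whole reads (within 0.0002 of a whole number, up to a common divisor) were recovered for 100% of the 16069 genes above 0, with a whole gene length for 100% of 60 genes checked. Counting errors cover counting alone.

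limma 3.58.1 in R 4.3.3 was fitted on log2(FPKM + 1) to genes at FPKM 1 or more in 2 or more samples, with a mean-variance trend and Benjamini-Hochberg adjustment at 0.05, after a test on simulated data. No count model was the main test, since the values are FPKM. It had 2 residual and 2.69 prior degrees of freedom. The study's methods do not say how the mice of a sort were divided over samples, and p-values measure the spread between these samples. Alternatives were a pseudocount of 0.1, no filter, upper-quartile scaling, a replicate block, length correction (loess, span 0.5) with and without the block, limma-voom, leaving out each sample and, chosen after seeing the data, scaling to all recovered reads.

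Members and lists were chosen with earlier results of these data known. Named beside the 10 members are wider-pathway genes with an unadjusted p under 0.05, the most abundant of each class, and genes chosen after their values were seen (*Cish*, *Ccnd2*, *Bcl2*, *Runx3*, *Pim1*, *Il6st*, *Foxo1*, *Gfi1*, *Gabpa*, *Runx1*, *Il21*, *Il21r*). Marker lists were T lineage, preselection DP, mature single-positive, B cell, myeloid, thymic epithelial, erythroid and dissociation stress. From the preselection DP and mature single-positive lists 2 genes are not reported here, so neither list is complete. Gene positions and promoter sequences were taken from RefSeq (GRCm38.p6, the assembly of mm10) and transcripts from GENCODE, matched by symbol for 10 of 10 members. Exon usage was not analysed here. Python 3.11.15, pandas 2.3.3 and matplotlib 3.10.9 made tables and figures.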

Additional observations from a re-analysis of the deposited data

How the results depend on the processing

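Over 8 processing alternatives, 78 of 80 member fold changes kept their direction, the exceptions being *Il2rg* at 0.032 with length correction and at 0.032 with it and the replicate block. The members past an adjusted p of 0.05 and the pathway genes past it stayed at 0, and the members with an unadjusted p under 0.05 at 1, but not always the same gene. That gene was *Jak1* without the replicate block; with the block it was *Il6ra* (limma, unadjusted p = 0.0441, and 0.0369 with length correction) and *Jak1* had an unadjusted p of 0.0608 (0.0725 with length correction). The lowest adjusted p of a member was 0.832. With the replicate number as a block, 1 gene of all tested passed, and no member had an adjusted p under 0.05; samples with the same number deviated from their group means with a correlation of -0.059, which does not pair them. Over all tested genes the count past the threshold was 1, and 0 with upper-quartile scaling, no filter, a pseudocount of 0.1, limma-voom on recovered reads or scaling to all recovered reads; the cause was not tested.

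Leaving out 1 sample at a time, the members past the threshold ranged from 0 to 7, those with an unadjusted p under 0.05 from 0 to 8, the pathway genes past the threshold from 0 to 24, and all tested genes past it from 0 to 2559. The high ends are without cKO 1, where cKO 2 stands alone against 2 controls and is assumed to vary like them. Without cKO 2 the counts were 0, 3, 0 and 19. The fitted log2 changes without cKO 1 and without cKO 2 were -1.46 and 0.10 for *Il7r*, 0.119 and -0.133 for *Il2rg*, 0.612 and -0.147 for *Il4ra*, -0.576 and 0.03 for *Jak3*, 0.375 and -0.075 for *Stat5a*, 0.50 and -0.019 for *Stat5b*, -0.06 and 0.204 for *Socs1*, and 0.002 and -0.184 for *Socs3*, and *Il2rg* was at 0.006 without control 1. Among the 10 genes, counting error was highest for *Il6ra* (9.05% of its lowest value) and *Socs3* (7.27%).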

Other observations

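Of the 7 genes that cell dissociation induces (*Fos*, *Jun*, *Egr1*, *Dusp1*, *Hspa1a*, *Hspa1b*, *Ier2*), 5 were tested and 0 had an adjusted p under 0.05 from limma, while 1, *Dusp1*, had an unadjusted p under 0.05, beside 0.00928% and 4.55% of all tested genes. The summed FPKM of the 7 was 255 and 225 in the controls, 193 in cKO 1 and 278 in cKO 2, most of it *Egr1*. Gene by gene, cKO 2 was below the other 3 samples for 4 of the 7 and above them for 2. *Dusp1*, a phosphatase of MAP kinases, was at 15.6 and 15.0 FPKM in the controls, 12.7 in cKO 1 and 10.3 in cKO 2. *Egr1*, an early target of TCR signalling, was at 167 and 137 in the controls, 117 in cKO 1 and 196 in cKO 2. Thymic epithelial markers summed to 3.18 to 4.18 FPKM in the 4 samples, most of it *Epcam*. Of 5 erythroid markers, 3 haemoglobin genes were listed at 0 in every sample, and the sum was 0.61 to 2.67 FPKM.

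*Il21*, the cytokine made by activated T cells, was the most abundant of the 7 ligand genes but stayed under the filter. It had 33 and 41 reads in the controls, 97 in cKO 1 and 9 in cKO 2, so the 2 Foxa1/2cKO samples lay on opposite sides of the controls. Its receptor gene *Il21r* was at 87.4 and 79.6 FPKM in the controls, 76.4 in cKO 1 and 97.6 in cKO 2.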
